A study of Medicago sativa with 24 samples.

Results

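The 12P set holds 110 genes whose transcripts were high in leaves of the pollen parent 12P and low in leaves of the seed parent PG-F9. A gene was taken when the lowest of the 3 arrays of 12P exceeded the highest of the 3 arrays of PG-F9 by a gap of more than 3 on the log2 scale, which is more than 8-fold. Of the 41527 genes on the array, 113 (0.272%) passed that gap, and 3 of them, listed by name in the rule, were left out. None of the 113 was dropped for an annotation as a retroelement, a transposon or a leucine-rich repeat or disease resistance gene. The annotation searched covered only 8 of the 110 genes kept, so the set may still hold such genes. The difference between 12P and PG-F9 was therefore chosen and is given here only as a description. The question was which of the 6 hybrids between these parents carried the high state of 12P.

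Gene transcription was measured on 24 NimbleGen arrays carrying probes designed for M. truncatula, with young, fully expanded leaves from 8 genotypes of M. sativa at the vegetative stage. The tetraploid (4x) hybrids were S29-4x, S48-4x and S60-4x, and the diploid (2x) hybrids were S8-2x, S16-2x and S24-2x. They were full sibs from the cross of PG-F9 with 12P, and the 4x hybrids arose by bilateral sexual polyploidization, that is, from an unreduced egg and unreduced pollen. The parent 12P is a diploid plant derived from M. sativa subsp. coerulea and subsp. falcata that forms some unreduced pollen, and PG-F9 is a diploid plant of subsp. falcata that forms some unreduced eggs. Each genotype is a single cloned plant and had 3 replicates, each a bulk of leaves of 2 cloned plants. The spread between replicates is therefore a spread within a clone, and each ploidy level of the hybrids is represented by 3 genotypes.

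Alfalfa is an outcrossing species, and its plants commonly carry different alleles at a locus. A reduced gamete passes on a single allele of each locus, so that sibs from the same cross can differ in the allele they receive, whereas an unreduced gamete can pass on both alleles of a locus. A probe designed for another species reports both the amount of a transcript and how well its sequence pairs with the probe. In these arrays a low intensity of a gene can stand for little transcript or for a transcript that pairs poorly with the probes, and these cannot be told apart. For a bulk of leaves, fewer cells of a type and less RNA per cell cannot be told apart either.

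The arrays had median intensities of 499.3 to 527.7. A share of 66.0% to 79.1% of the genes exceeded the highest of the 11 negative controls of the same array. That highest negative control lay between 5.90 and 7.01 on the log2 scale and was taken as the background. Of 8 leaf mesophyll markers, genes of the photosynthetic machinery, 6 exceeded 10 on all 24 arrays, and TC198142 and TC183902 were at background on 9 arrays each. Of 3 genes annotated as nodule genes, which should be low in leaves, only TC193898 was at background on most arrays (15). TC191278 was at background on the 3 arrays of 12P alone and had a median of 11.41 over all 24 arrays. TC179367 was above background on every array.

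A pair of arrays stood apart from the other replicates of their genotype over genes that were higher in another genotype. In S16-2x, 19 genes of all 41527 were low on replicates 2 and 3 and higher by over 2 on the log2 scale in S24-2x, and replicate 1 lay at a median of 56.3% of the linear distance to S24-2x. Replicate 3 of S29-4x lay at 31.9% of the way to S60-4x over 64 genes and at 29.2% of the way to S48-4x over 56 genes. For the arrays other than these, the same median over genes higher in the other genotype was between -2.17% and 4.62% in 152 comparisons of an array with another genotype. Over genes that were lower in the other genotype it varied more widely, from -38.5% to 91.8% in 150 comparisons. In this direction S24-2x replicate 1 lay at 91.8% of the way to S16-2x (41 genes, 0 of them in the 12P set), S16-2x replicate 3 at 55.5% of the way to S48-4x (200 genes), 12P replicate 3 at 50.3% of the way to S48-4x (184 genes) and S16-2x replicate 1 at 63.3% of the way to S24-2x (97 genes). Over the genes of the 12P set alone, the median was 4.08% for S16-2x replicate 3 (20 genes) and 3.88% for 12P replicate 3 (29 genes). Over 19 genes of the 12P set in which S16-2x and S24-2x differed in this manner in either direction, S16-2x replicate 1 lay between 32.1% and 83.8% of the way, with a median of 66.4%. The cause was not tested, and results that rest on S16-2x replicate 1 or S29-4x replicate 3 are given with and without them.

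In 12P, the mean log2 intensity of the 110 genes lay between 8.19 and 13.78, with a median of 10.76. In PG-F9 it lay between 4.46 and 9.52, with a median of 6.14. The gap between the parents was between 3.01 and 6.82, with a median of 3.84. On the PG-F9 arrays, 70 genes were at background on all 3 arrays, 18 on 1 or 2 of them and 22 on none. The description of the set as on only in 12P thus held in the sense of a transcript at background in PG-F9 for 70 of 110 genes, and 22 genes had a measurable but lower intensity in PG-F9. Just inside the rule were TC185316, NP7261974 and NP7264163, each with a gap of 3.01. Just outside it were TC194777, TC174288 and NP7253003, each with a gap only slightly below 3.

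For most of these genes, the material used here does not tell what they encode. By their identifiers, 74 genes are tentative consensus sequences assembled from transcripts (TC) and 36 are coding sequences taken from sequence database entries (NP). The annotation used came from a list in the study that was limited to genes differing between means of parents and hybrids. Only 8 of the 110 are on that list, 3 of them as hypothetical proteins and 2 without a text. The other 102 are not on it, which does not mean that their products are unknown. The 3 genes with a named product are TC173140, a glycoside hydrolase of family 17, a plant family best known for beta-glucanases that cut callose, TC194979, partly similar to a fungal exoglucanase, an enzyme that releases sugar from the ends of cellulose chains, and NP7257220, related to a helicase-like protein, helicases being enzymes that unwind nucleic acids.

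To describe which hybrids carried the high state, a line was drawn for each gene midway between the lowest 12P array and the highest PG-F9 array. A hybrid was called high where all 3 of its arrays were above the line, low where all 3 were below, and mixed otherwise. Of the 660 combinations of a gene and a hybrid, 444 were high, 146 low and 70 mixed. S29-4x was high in 85 genes, low in 9 and mixed in 16. S48-4x was high in 70, low in 29 and mixed in 11. S60-4x was high in 74, low in 26 and mixed in 10. With all arrays the 4x hybrids differed more in the number of low genes than in that of high genes. This did not hold without S29-4x replicate 3, since 8 of the mixed genes of S29-4x then became low and 3 became high.

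Among the 2x hybrids, S8-2x was high in 67 genes, low in 40 and mixed in 3. S16-2x was high in 72, low in 11 and mixed in 27. S24-2x was high in 76, low in 31 and mixed in 3. Counted array by array, the number of genes above the line was 93, 89 and 77 on the 3 arrays of S16-2x, and it was 90, 91 and 95 in S29-4x. In the other hybrids the arrays of a genotype differed by at most 4 genes. Without S16-2x replicate 1 and S29-4x replicate 3, S29-4x was high in 88 genes and mixed in 5, and S16-2x was high in 76 and mixed in 14. Of the genes mixed on all 3 arrays, 8 then became low in S29-4x and 9 in S16-2x. By the definition of the states, leaving out an array can change only mixed calls, so no gene could change between high and low. The counts and their order depended on the line: where a high gene had to be at most 1 below the lowest 12P array, 51 genes were high in S29-4x, 32 in S48-4x, 52 in S60-4x, 51 in S8-2x, 45 in S16-2x and 58 in S24-2x, which then had the most.

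**Figure D1:**
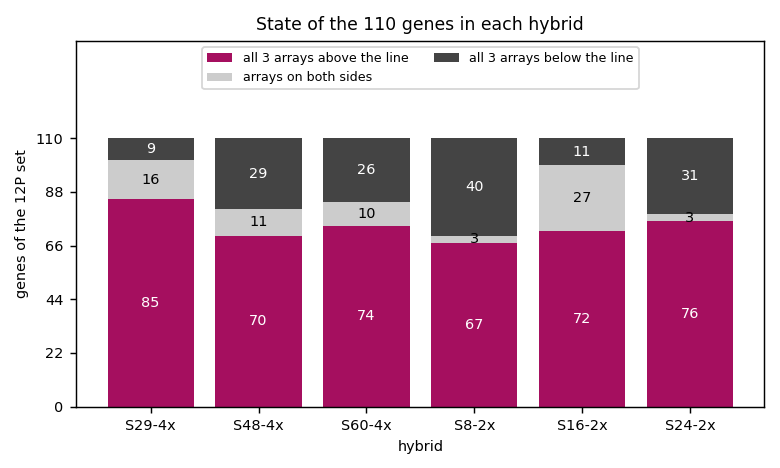
Number of genes of the 12P set (vertical axis, of 110) that were high, mixed or low in each hybrid (horizontal axis), by the position of the 3 arrays of a hybrid relative to the line between the parents. S29-4x had the most high genes (85), S8-2x the most low genes (40) and S16-2x the most mixed genes (27), with the line midway between the parents.

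The mixed genes of S16-2x are those with arrays on both sides of the line, so some spread between replicates was given by that choice. Which replicate was higher was not given by it. Of these 27 genes, 18 were high in S24-2x, and in all 18 replicate 1 of S16-2x was the highest of its 3 arrays. In 17 of the 18, replicate 2 lay between replicates 1 and 3. Positions were counted on the linear scale from replicate 3 to the mean of S24-2x. Replicate 1 lay at a median of 78.8% and replicate 2 at 11.9%, although replicate 2 of single genes was between -105.9% and 69.9%. Replicate 3 was the lowest array in most of these genes, so positive positions were largely given by this starting point. NP7266630 had a mean log2 intensity of 11.11 in S24-2x, against 10.72, 8.95 and 8.03 on the 3 arrays of S16-2x. In 8 of the 27 genes S24-2x was low, and in 4 of these replicate 1 was below both other arrays of S16-2x by over 1, as in TC187696. With an array of S16-2x left out, its number of high genes was between 73 and 83.

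**Figure D2:**
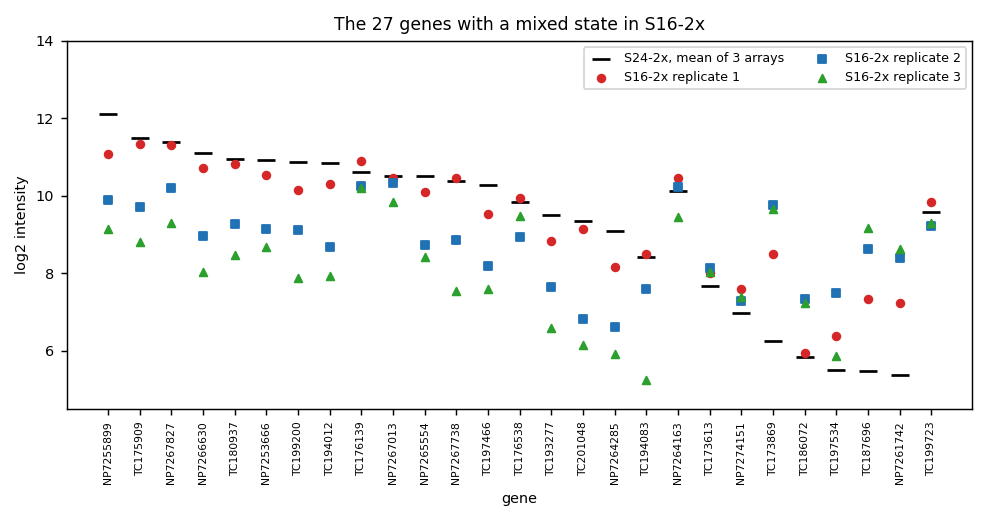
Log2 intensity (vertical axis) of the 27 genes with a mixed state in S16-2x (horizontal axis), for the 3 arrays of S16-2x (coloured symbols) and the mean of S24-2x (black bars). In the 18 genes that were high in S24-2x, drawn on the left, replicate 1 was the highest array of S16-2x.

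The high state was at or somewhat below the level of 12P. Taken over the genes that were high in a hybrid, the median linear intensity as a share of the mean of 12P was 60.2% in S29-4x, 53.8% in S48-4x and 61.2% in S60-4x. It was 75.2% in S8-2x, 64.6% in S16-2x and 78.7% in S24-2x. The middle parts of these distributions overlapped, with quartiles of 47.6% and 75.5% in S29-4x, and of 51.4% and 94.7% in S24-2x. Between 2 genes (S48-4x) and 16 genes (S24-2x) of those in the high state exceeded the mean of 12P. The shares rest on the genes called high in each hybrid, which are not the same genes in all 6, and were not tested.

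In the low state, most genes were close to the level of PG-F9. The mean of the hybrid was within 1 of the mean of PG-F9 on the log2 scale in 25 of the 29 low genes of S48-4x, 31 of 40 in S8-2x and 18 of 26 in S60-4x. The same held for 5 of 9 in S29-4x, 9 of 11 in S16-2x and 19 of 31 in S24-2x. The median distance from PG-F9 in the low state was 0.11 in S48-4x and 0.83 in S29-4x. Not every gene fell into either state, since the mean of a hybrid was within 1 of the line for between 17 genes (S8-2x) and 40 genes (S16-2x) of 110.

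Counted gene by gene, 27 of the 110 genes were high in all 6 hybrids. A further 19 were high in 5 hybrids, 25 in 4, 21 in 3, 8 in 2, 8 in 1 and 2 in none. Genes with at least 1 high and at least 1 low hybrid numbered 70. Of the 62 genes without a mixed state, 35 had both states, and these fell into 16 different combinations of hybrids. Without S16-2x replicate 1 and S29-4x replicate 3, 76 genes had no mixed state, and again 27 were high in all 6 hybrids. In both ploidy levels at least 1 hybrid was high for 91 genes. All 3 4x hybrids were high in 44 genes, and all 3 2x hybrids in 41.

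**Figure D3:**
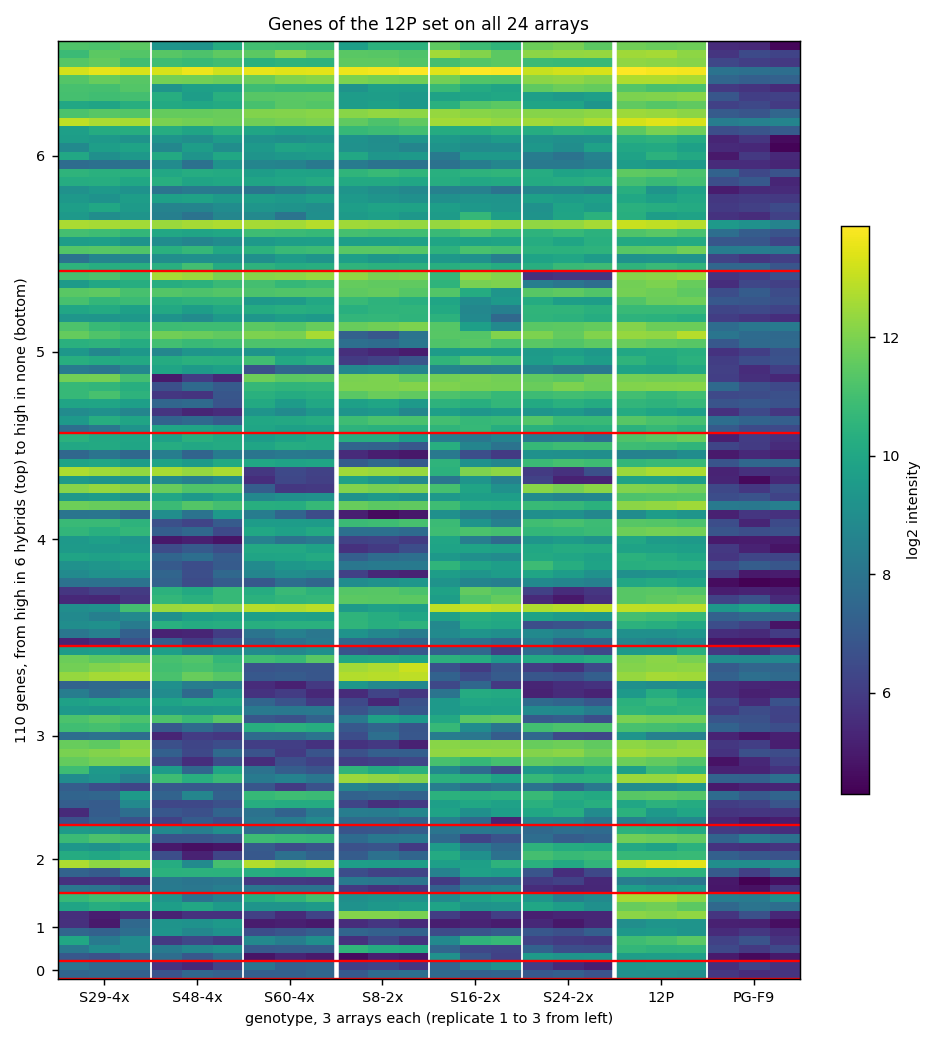
Log2 intensity (colour) of the 110 genes (rows) on the 24 arrays (columns, 3 for each genotype), with the 4x hybrids left, the 2x hybrids in the middle and the parents 12P and PG-F9 right. Rows are grouped by the number of hybrids in the high state (vertical axis, 6 to 0), with red lines between the groups. The upper 27 rows are high in all hybrids, and below them dark blocks of low genes fall in different hybrids.

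The gene with the largest gap, TC173294, had log2 intensities of 12.69, 12.51 and 12.32 in S29-4x, 12.62, 12.35 and 12.68 in S48-4x, and 5.86, 6.42 and 6.19 in S60-4x. In the 2x hybrids it measured 12.51, 12.40 and 12.38 in S8-2x, 10.46, 12.03 and 12.25 in S16-2x, and 5.95, 5.67 and 6.65 in S24-2x. The parents measured 12.44, 12.68 and 12.65 in 12P, against 5.27, 5.61 and 5.57 in PG-F9. S60-4x and S24-2x thus resembled PG-F9, and the other 4 hybrids resembled 12P, apart from the lower replicate 1 of S16-2x.

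TC178995, with a gap of 6.05, was low in S29-4x (5.81, 6.10 and 5.97) and in S24-2x (6.15, 5.52 and 5.80). It was high in S48-4x (10.46, 10.11 and 10.70), S60-4x (10.25, 10.80 and 10.48), S8-2x (11.35, 11.37 and 11.15) and S16-2x (9.82, 11.58 and 11.33). The parents measured 11.39, 11.42 and 11.27 in 12P and 5.08, 5.22 and 5.09 in PG-F9. The low hybrids of TC178995 and TC173294 overlapped only in S24-2x, and no array of a low hybrid reached the arrays of a high hybrid in either gene.

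TC199604, with a gap of 6.03, divided the hybrids in a different way. It was high in S29-4x (11.65, 11.52 and 12.15), S16-2x (12.16, 12.07 and 12.10) and S24-2x (11.66, 11.77 and 11.53). It was low in S48-4x (6.65, 6.31 and 6.55), S60-4x (6.06, 6.08 and 5.71) and S8-2x (5.70, 5.89 and 5.22). TC193108 and TC179843 were high in these same 3 hybrids and low in the same other 3. TC193108 averaged between 12.03 and 12.32 in S29-4x, S16-2x and S24-2x, against 6.50 to 7.08 in S48-4x, S60-4x and S8-2x. Nothing in the files tells whether these genes are neighbours in the genome.

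The other 3 genes of the 6 with the largest gaps were high in all hybrids, at unequal levels. NP7275518 was highest in S24-2x (11.72, 11.90 and 11.48) and lowest in S48-4x (9.29, 9.25 and 10.23), and the arrays of these hybrids did not overlap. It measured 11.80, 11.69 and 11.78 in 12P, against 5.49, 5.42 and 4.48 in PG-F9. TC187317 had hybrid means from 11.19 ± 0.33 in S29-4x to 12.30 ± 0.09 in S24-2x (SD, n = 3 each), against 12.45 ± 0.17 in 12P and 6.16 ± 0.34 in PG-F9. TC178175 had hybrid means from 10.47 ± 0.08 in S60-4x to 11.44 ± 0.12 in S8-2x, and all hybrid arrays were below the 12P arrays (12.29, 12.19 and 12.14) and above those of PG-F9 (6.35, 6.08 and 5.87).

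The 27 genes that were high in all 6 hybrids spanned most of the range of intensities of the set. Their mean in 12P was between 9.23 and 13.78 (median 11.25), and 15 of them were at background on all 3 PG-F9 arrays. TC183993, the brightest, lay between 13.07 and 13.87 on the hybrid arrays, with 13.88, 13.76 and 13.70 in 12P, against 7.95, 7.82 and 7.76 in PG-F9. TC180587 was high in all hybrids but at unequal levels, with means of 11.02 ± 0.06 in S29-4x, 10.09 ± 0.38 in S48-4x and 11.42 ± 0.04 in S60-4x, against 9.56 ± 0.11 in S8-2x, 9.89 ± 0.09 in S16-2x and 9.65 ± 0.11 in S24-2x (SD, n = 3 each). Its difference, 4x minus 2x, was 1.14 ± 0.20 (SE, adjusted p of 0.00148 in limma). In limma with genotype as a random block the adjusted p was 0.0106, and with genotype means as observations it was 0.291. TC180587 measured 12.08 ± 0.10 in 12P and 6.36 ± 0.44 in PG-F9. The hybrids differed in the level of TC180587 in the F test of limma (adjusted p of 8.34e-07), although all were in the high state.

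**Figure D4:**
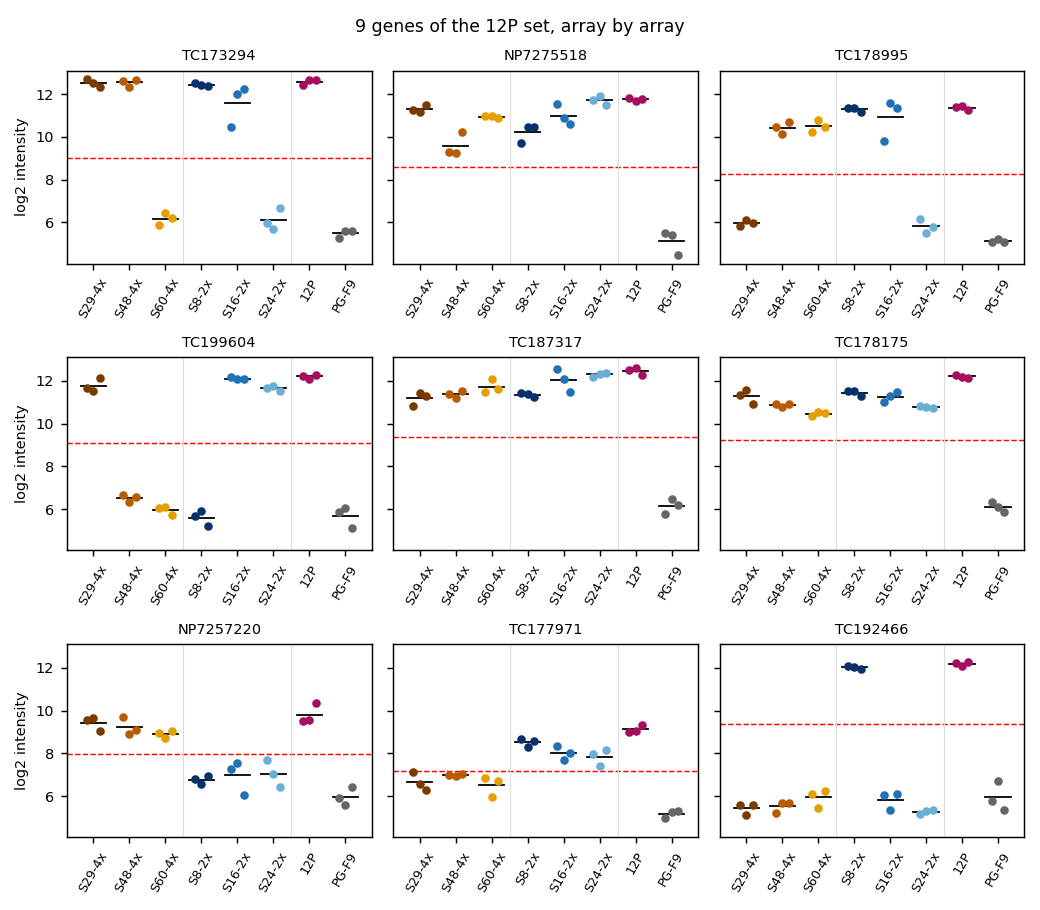
Log2 intensity (vertical axis) of 9 genes of the 12P set on each array (points) with the mean of each genotype (short black bars) and the line used for the states (red, dashed). The upper 6 panels are the genes with the largest gaps. The lower row shows NP7257220, high in the 4x hybrids alone, TC177971, high in the 2x hybrids alone, and TC192466, high in S8-2x alone.

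In a group of genes a single hybrid departed from the other 5. S48-4x alone was low in 6 genes (NP7252928, NP7271657, NP7267690, NP7263732, TC173751 and TC201763). S8-2x alone was low in 4 genes (TC199050, TC173678, TC188181 and TC193979), S24-2x alone in TC190347 and TC200296, and S60-4x alone in TC198003. Without S16-2x replicate 1 and S29-4x replicate 3, S48-4x alone was low in 7 genes, S8-2x in 4 and S24-2x in 3. S29-4x, S16-2x and S60-4x were then each low alone in 1 gene. NP7252928 averaged 5.45 ± 0.51 in S48-4x (SD, n = 3), whereas the arrays of the other 5 hybrids lay between 11.03 and 11.97, near those of 12P (11.88, 11.82 and 11.80). TC193979 measured 5.91, 6.17 and 6.83 in S8-2x, whereas the other hybrid arrays lay between 9.60 and 11.24. TC190347 measured 5.63, 5.77 and 5.77 in S24-2x, against 10.70 or more on every array of the other hybrids. In TC198003 the low hybrid was less distant, with 6.67, 7.50 and 7.47 in S60-4x and 8.07 or more in the other hybrids. TC192466 showed the opposite picture and was high in S8-2x alone, at 12.10, 12.06 and 11.93, whereas no array of another hybrid exceeded 6.23. In 12P it measured 12.23, 12.09 and 12.28, against 5.79, 6.69 and 5.35 in PG-F9.

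In 2 genes no hybrid was high. For NP7274151 all 18 hybrid arrays lay between the parents, from 6.77 to 7.83, and it measured 9.13, 9.12 and 8.99 in 12P, against 5.85, 5.51 and 5.76 in PG-F9. TC187696 was low in S48-4x, S8-2x and S24-2x, and intermediate in S29-4x (7.98, 7.55 and 7.62) and S60-4x (7.26 to 8.03), while the arrays of S16-2x were spread over 7.35, 8.63 and 9.18. It measured 9.36, 9.49 and 9.48 in 12P, against 5.58, 6.16 and 5.67 in PG-F9. Intermediate levels were thus reached in all hybrids for NP7274151, but in only some of them for TC187696.

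The same rule in the opposite direction, with PG-F9 above 12P, gave a PG-F9 set of 87 genes (89, or 0.214% of all genes, before 2 were dropped by annotation). The share of genes in the high state was 77.3% in the 12P set and 66.7% in the PG-F9 set for S29-4x, and 63.6% and 74.7% for S48-4x. High in all 6 hybrids were 27 of 110 genes of the 12P set and 28 of 87 of the PG-F9 set. High in none were 2 genes of the 12P set and 7 of the PG-F9 set. These shares are descriptions, and the difference between the sets was not tested.

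The agreement of states differed from pair to pair. Of the genes with a clear state in both, S16-2x and S24-2x had the same state in 85.2% (69 of 81), and S29-4x and S16-2x in 83.3% (60 of 72). The lowest agreement was between S48-4x and S24-2x, with 52.6% (51 of 97), and S60-4x and S24-2x agreed in 77.3% (75 of 97). Without S16-2x replicate 1 and S29-4x replicate 3, S16-2x and S24-2x had the same state in 76.3% (71 of 93) and S29-4x and S16-2x in 71.7% (66 of 92), and neither pair was then above S60-4x and S24-2x. In none of the 81 genes clear in both was S16-2x low and S24-2x high, and the reverse held in 12. Without its replicate 1, S16-2x was low and S24-2x high in 6 genes and the reverse held in 16.

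The differences among the hybrids were tested on their 18 arrays, which the rule did not use. With limma's F test, with Benjamini-Hochberg adjustment over all 41527 genes, and a range of the 6 hybrid means over 1, 93 of the 110 genes (84.5%) differed among the 6 hybrids, against 17.4% of all genes. The median range of the hybrid means was 2.91 on the log2 scale for the set and 0.61 for all genes. The lowest adjusted p belonged to TC199604 and TC183667 (2.76e-12 each) and TC178511 (3.67e-11). TC183667 and TC178511 had a shared pattern, high in S29-4x, S48-4x and S8-2x and low in S60-4x, S16-2x and S24-2x. TC183667 measured 12.35, 12.57 and 12.68 in S29-4x and 12.76, 12.85 and 12.93 in S8-2x, but 11.13, 11.66 and 11.35 in S48-4x, below the 12P arrays (12.37, 12.57 and 12.51). In S60-4x, S16-2x and S24-2x no array of TC183667 exceeded 7.31, and in PG-F9 it measured 7.27, 7.80 and 7.62.

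Not all genes of the set differed among hybrids. TC194979, similar to exoglucanase 1, lay between 12.28 and 12.79 on all 18 hybrid arrays, below 12P (13.08, 12.95 and 12.83) and above PG-F9 (9.48, 9.13 and 8.57), and its adjusted p in the F test of limma was 0.365. Its PG-F9 arrays were above background and near the median of all genes on an array, which lay between 8.96 and 9.04. NP7274151, intermediate in the hybrids, had an adjusted p of 0.298 in the same test.

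Between hybrids of the same ploidy level, the share of called genes of the set varied with the pair. With 3 arrays against 3, a gene was called by limma where its adjusted p was below 0.05 and the log2 difference exceeded 1 in either direction. In S60-4x against S48-4x 47 genes were called (42.7%, against 3.24% of all genes), 29 of them higher in S60-4x (2.15% of all genes) and 18 lower (1.09%). In S48-4x against S29-4x 42 were called (38.2%, against 3.16%), 11 higher in S48-4x (0.963%) and 31 lower (2.19%). In S60-4x against S29-4x 35 were called (31.8%, against 1.54%), 12 higher in S60-4x (0.744%) and 23 lower (0.795%). The count of this last pair fell to 19 without S60-4x replicate 2 and to 22 without S60-4x replicate 1 or replicate 3, whereas it was 35 without S29-4x replicate 3.

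Among the 2x hybrids, 45 genes were called in S24-2x against S8-2x (40.9%, against 3.42% of all genes), 28 of them higher in S24-2x (1.62% of all genes) and 17 lower (1.8%). In S16-2x against S8-2x 38 were called (34.5%, against 2.51%), 29 higher in S16-2x (1.44%) and 9 lower (1.07%). In S24-2x against S16-2x 13 were called (11.8%, against 0.864%), 0 higher in S24-2x (0.335%) and 13 lower (0.53%), and 52 genes had an unadjusted p under 0.05 in this pair. Without S16-2x replicate 1, 32 genes were called in this pair, 14 higher in S24-2x and 18 lower. Without S24-2x replicate 2 or 3, or S16-2x replicate 2 or 3, 0 genes of the set were called by limma in this pair, and without S24-2x replicate 1 there were 14.

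**Figure D5:**
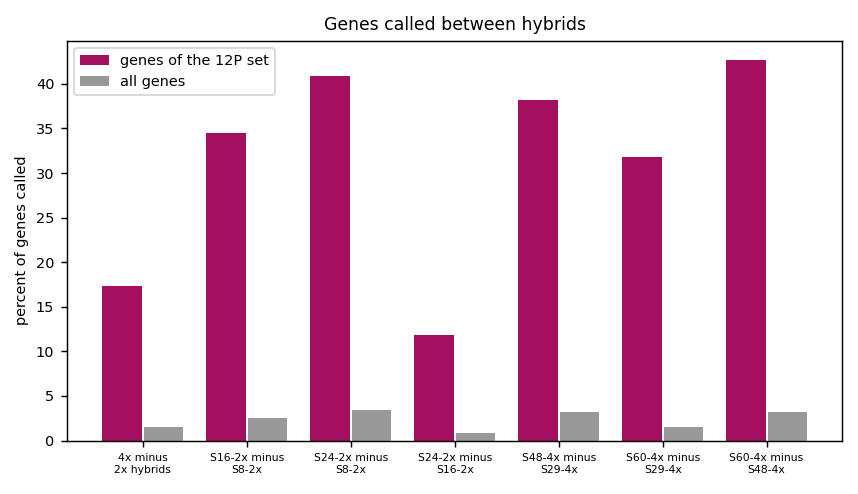
Percent of genes called with limma (vertical axis) for the 4x minus the 2x hybrids and for the 6 pairs within a ploidy level (horizontal axis), for the 110 genes of the 12P set (purple) and all 41527 genes (grey). The share of the set was 17.3% between ploidy levels and between 11.8% and 42.7% within them.

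Comparing 9 arrays of 4x hybrids with 9 of 2x hybrids, 19 genes of the set were called (17.3%, against 1.47% of all genes). Of these, 9 were higher in the 4x hybrids (0.824% of all genes) and 10 lower (0.648%). The median log2 difference, 4x minus 2x, was -0.00 in the set and -0.01 over all genes, and the median absolute difference was 0.59 and 0.18. The arrays of the ploidy levels did not overlap for 8 genes of the set, against 1.34% of all genes, and all 8 were called, against 0.354% of all genes that were both called and free of overlap. The arrays of a clone are not independent plants of a ploidy level. With genotype as a random block 8 genes were past the threshold, and with the 6 genotype means as the observations 1 gene was, NP7257220. The count was 40 with all 24 arrays fitted as 8 genotype means, and 12 without S48-4x. The random block uses a correlation within genotypes that is shared by all genes. The median range of the hybrid means was 2.91 on the log2 scale in the set, against 0.61 for all genes. The block may therefore correct too little for differences between clones in genes of the set.

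NP7257220, the helicase-like gene, was the single gene of the set that was high in all 3 4x hybrids and low in all 3 2x hybrids. It measured 9.55, 9.67 and 9.03 in S29-4x, 9.70, 8.90 and 9.09 in S48-4x, and 8.94, 8.74 and 9.06 in S60-4x. The 2x hybrids measured 6.80, 6.57 and 6.94 in S8-2x, 7.29, 7.54 and 6.06 in S16-2x, and 7.68, 7.02 and 6.40 in S24-2x. The lowest 4x array, at 8.74, exceeded the highest 2x array, at 7.68. The 4x hybrids were near 12P (9.51, 9.57 and 10.33), while the 2x hybrids were above PG-F9 (5.89, 5.60 and 6.43) in their means. The log2 difference, 4x minus 2x, was 2.26 ± 0.20 (SE), with an adjusted p of 1.74e-06 in limma, of 0.00056 with genotype as a random block and of 0.0468 with genotype means as observations.

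TC177971 was the single gene that was low in all 3 4x hybrids and high in all 3 2x hybrids. The 4x hybrids measured 7.14, 6.57 and 6.30 in S29-4x, 6.98, 6.94 and 7.03 in S48-4x, and 6.85, 5.94 and 6.70 in S60-4x. The 2x hybrids measured 8.66, 8.30 and 8.57 in S8-2x, 8.34, 7.70 and 7.99 in S16-2x, and 7.95, 7.40 and 8.13 in S24-2x. The groups did not overlap, and the log2 difference, 4x minus 2x, was -1.40 ± 0.18 (SE), with an adjusted p of 9.83e-05 in limma, of 0.00489 with genotype as a random block and of 0.169 with genotype means as observations. All hybrid arrays were above those of PG-F9 (4.99, 5.25 and 5.30) and below those of 12P (8.99, 9.04 and 9.32).

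TC173140, the glycoside hydrolase of family 17, was among the 3 called genes with the largest fall in the 4x hybrids. It measured 5.43, 7.10 and 7.77 in S29-4x, 6.91, 6.64 and 7.38 in S48-4x, and 7.91, 7.30 and 8.26 in S60-4x, against 8.36, 8.33 and 8.65 in S8-2x, 9.85, 9.11 and 9.62 in S16-2x, and 10.01, 10.28 and 8.93 in S24-2x. All 4x arrays were below all 2x arrays. The log2 difference, 4x minus 2x, was -2.05 ± 0.34 (SE), with an adjusted p of 0.000979 in limma, of 0.0235 with genotype as a random block and of 0.225 with genotype means. The parents measured 10.43, 9.45 and 9.96 in 12P, against 5.75, 5.82 and 5.78 in PG-F9.

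In the other called genes with the largest differences the 4x hybrids differed among themselves. NP7271657, a hypothetical protein, had the largest fall, -2.51 ± 0.55. Its adjusted p was 0.00553 in limma, 0.0224 with genotype as a random block and 0.344 with genotype means. It measured 6.62, 7.59 and 7.04 in S48-4x. It lay between 10.30 and 10.72 in S29-4x and S60-4x, and between 11.67 and 12.11 in the 2x hybrids. NP7267690 was likewise low in S48-4x alone, at 5.83, 5.75 and 6.86. Its difference of -2.08 ± 0.69 had an adjusted p of 0.0495 in limma and of 0.119 with genotype as a random block, and was -0.62 without S48-4x, below the threshold on the difference. In both genes S29-4x and S60-4x were in the high state with the 2x hybrids. TC201763 had the same states, with 7.30, 7.56 and 7.05 in S48-4x, and its difference was -1.85 ± 0.43. The adjusted p of TC201763 was 0.00803 in limma, 0.0336 with genotype as a random block and 0.359 with genotype means.

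Differences without overlap of the arrays were also found in NP7264163, TC194800 and NP7269303. NP7264163 lay between 10.64 and 11.71 in the 4x hybrids and between 9.46 and 10.47 in the 2x hybrids. The difference was 1.15 ± 0.15, with an adjusted p of 0.000122 in limma, of 0.00698 with genotype as a random block and of 0.169 with genotype means. All hybrid arrays of NP7264163 were below 12P (11.98, 12.20 and 11.92) and above PG-F9 (8.91, 8.81 and 8.83). TC194800 lay between 6.50 and 7.92 in the 4x hybrids and between 8.43 and 9.34 in the 2x hybrids. The difference was -1.45 ± 0.19, with an adjusted p of 0.000126 in limma, of 0.00376 with genotype as a random block and of 0.208 with genotype means. The parents measured 10.05, 10.21 and 9.95 in 12P, against 4.61, 4.33 and 4.44 in PG-F9. The last of the 8 genes without overlap was NP7269303, with a difference of -1.09 ± 0.26 (adjusted p of 0.00992 in limma). It was not past the threshold with genotype as a random block (adjusted p of 0.0626). NP7269303 was mixed in S29-4x and high in all other hybrids of both ploidy levels. Its log2 difference from S29-4x was 1.47 in S48-4x and 1.45 in S60-4x, and neither was called.

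TC173869 rose by 2.14 ± 0.65 in the 4x hybrids, with an adjusted p of 0.0334 in limma. It was high in S48-4x (10.43, 10.45 and 10.41) and S60-4x (10.25, 10.14 and 10.32), low in S29-4x (7.34, 7.10 and 8.52), S8-2x (6.57, 6.19 and 6.27) and S24-2x (6.82, 5.56 and 6.38), and mixed in S16-2x (8.50, 9.77 and 9.65). NP7252988 rose by 2.13 ± 0.65 in the 4x hybrids, with an adjusted p of 0.0349 in limma. It was high in S29-4x (10.81, 11.20 and 10.98) and S60-4x (10.90, 10.75 and 10.69), and low in S48-4x (6.76, 6.81 and 7.03) and in the 2x hybrids, of which no array exceeded 8.25. In these genes 1 of the 3 4x hybrids was low, and with genotype as a random block the adjusted p was 0.102 for TC173869 and 0.0941 for NP7252988.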

How the data were processed

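Leaf RNA of 8 genotypes, 3 replicates each, was hybridised in a single colour to 24 arrays with up to 3 probes per gene. The deposited intensity values are on the linear scale, and the authors quantile normalized them and summarized the probes with RMA. The deposited intensities were transformed to log2 here without a background subtraction or a filter on low values, and the 11 negative controls were left out. Samples were assigned by their labels. The members, gene lists, rule and tests were chosen with earlier results of these data known.

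The tests between hybrids were run in R 4.3.3 with lmFit and the plain eBayes of limma 3.58.1 on the hybrid arrays concerned, with Benjamini-Hochberg adjustment over all 41527 genes. A gene was called where the adjusted p was below 0.05 and the log2 difference (in either direction) or range of means exceeded 1. On simulated data with 200 genes changed by 2 on the log2 scale, 100% were recovered between 4x and 2x hybrids, 96.5% among the 6 hybrids and 88% between S48-4x and S29-4x, with simulated arrays that varied only as replicates of a clone do. States were computed in Python 3.11.15 with numpy 2.4.6 and pandas 2.3.3, and plots drawn with matplotlib 3.10.9.

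The genes named individually are the 6 with the largest gap, the 3 with a named product, among the genes called between 4x and 2x hybrids the 3 with the largest rise and the 3 with the largest fall, the 2 that were high in no hybrid and the 3 with the lowest p in the F test. TC177971, TC192466, TC193108, TC179843, NP7266630, TC183993, TC180587, NP7264163, TC194800, NP7269303 and the genes low in a single hybrid were named after their values were seen. The alternatives were other gaps, normalizations, lines for the states, error models and omitted arrays or hybrids. Sequences of the genes and their positions were not used here. The precision of the arrays is limited by their number.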

Additional observations from a re-analysis of the deposited data

Results flagged for a closer look

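NP7274151, a gene of the 12P set that was high in no hybrid, had a lowest value of 6.80 among the 9 arrays of the 4x hybrids, on S48-4x replicate 1. The next array was at 7.21, and the distance between them was 0.538 of the range of the 9 arrays, which singled this array out. The 17 named genes gave 34 such groups of 9 arrays, and chance marks about 5% of groups.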

How the results depend on the processing

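The 12P set held 272 genes with a gap over 2, 49 with a gap over 4, and between 109 and 111 under the other scalings and the floor. It held between 115 and 129 when a parental array was left out. With the line set at most 1 below the lowest 12P array, fewer genes were high in S29-4x (51), S48-4x (32) and S16-2x (45), and the highest count was in S24-2x (58). The other lines and scalings kept the counts of each hybrid within 1.5 times, and counts with an array of the hybrid left out were 86 to 88 in S29-4x, 70 to 73 in S48-4x, 75 to 76 in S60-4x, 67 to 70 in S8-2x, 73 to 83 in S16-2x and 76 to 77 in S24-2x.

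Among the 6 hybrids between 81 and 101 genes differed under the alternatives, 94 without the arrays that stood apart and 89 to 94 with an array left out. Between 4x and 2x hybrids, where 19 were called, the count was 40 with all 24 arrays fitted as 8 genotype means, 8 with genotype as a random block, 1 with genotype means as observations, 12 without S48-4x, 17 without the arrays that stood apart and 15 to 18 with an array left out. In S24-2x against S16-2x, where 13 were called, the count was 22 with the trend and robust options, 32 with all 24 arrays and 0 to 32 with an array left out. In S60-4x against S29-4x it was 19 to 35 with an array left out, and in the other pairs 27 to 48. The cause was not tested.

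Arrays that share a replicate number were not paired (mean correlation of residuals -0.007 for 84 pairs of the same number and 0.003 for 168 others). With the replicate number as a block, 17 genes were called between 4x and 2x hybrids, 93 differed among the hybrids, and 0 were called in S24-2x against S16-2x. The leaving out of the arrays that stood apart was chosen after seeing the data. Genes at background in PG-F9 have a gap limited by the background.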
